A study of Mus musculus with 18 samples.

Results

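The genes described here are 10 that are used to follow the mesenchymal state of a cell: the transcription factors *Snai1*, *Snai2*, *Twist1*, *Twist2*, *Zeb1*, *Zeb2* and *Prrx1*, the cadherins *Cdh2* and *Cdh11*, and the intermediate filament gene *Vim*. They were taken by symbol from a fixed list and matched through their Ensembl identifiers to the gene count table, which holds 38924 genes. All 10 were found, and all 10 passed the filter on low counts that left 16577 genes for testing. The study asked how fibroblasts of 3 organs respond when they are moved beneath the capsule of the kidney. That site is foreign to heart and tail cells, whereas kidney cells were returned to their organ of origin. The levels and changes of the 10 genes were read across the 6 groups of organ and state.

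RNA was sequenced from fibroblasts of the tail, the heart and the kidney, with 3 libraries in each of 6 groups and 18 libraries in all. The cells came from male donors aged 10 weeks that carried the Rosa mT/mG reporter on a C57BL/6 background, a genotype shared by every group. They were grown for 10 days after isolation. For the transplanted groups (HFs from heart, KFs from kidney, TFs from tail), 400000 to 500000 cells in gelatin foam were placed beneath the capsule of the kidney of syngeneic C57bl6/j recipients aged 10 to 11 weeks. After 3 days the kidneys were dissociated and live CD45-;TdTomato+ cells were sorted. For the cultured groups (HFc, KFc, TFc), the remaining cells of each organ were plated again and kept for 3 more days in the dish, with no sort described in the sources used here. Without Cre the reporter marks any donor cell with TdTomato, so the gate took donor cells other than leukocytes and did not select fibroblasts. A difference between a transplanted and a cultured group therefore covers the site, the surgery, the dissociation and the sort together, and these cannot be told apart. The study's methods name a low-input library kit for cells from the capsule and do not name the kit of their cultured controls. Library preparation may therefore differ with state as well. Each library was a bulk sample, in which fewer cells of a type and less RNA per cell cannot be told apart. The study calls the 3 libraries of a group biological replicates but does not say, in the sources used here, whether they came from separate donors or cultures, so the p-values measure the spread between these libraries.

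Snail, Twist and Zeb proteins are DNA-binding repressors and activators that switch epithelial cells towards a migratory, mesenchymal state in the embryo, in wounds and in tumours. The zinc finger factors *Snai1* and *Snai2* and the zinc finger and homeobox factors *Zeb1* and *Zeb2* bind E-box sequences and silence *Cdh1*, which encodes E-cadherin. *Twist1* and *Twist2* are basic helix-loop-helix factors that pair with E proteins, and *Prrx1* is a homeobox factor of limb, craniofacial and connective tissue mesenchyme. Epithelial cells that pass through this transition exchange E-cadherin for N-cadherin (*Cdh2*) or cadherin-11 (*Cdh11*) and build filaments of vimentin (*Vim*). Fibroblasts are mesenchymal from the start and normally express most of these genes. From single-cell sequencing of other cultures, the study proposes that its cultured kidney clusters are possibly tubular cells in this transition. Whether this holds for the kidney libraries here was not tested.

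Promoter windows were searched for only 6 of the 10 genes. They came from RefSeq on GRCm38.p6 and belonged to *Snai1*, *Twist1*, *Twist2*, *Zeb2*, *Prrx1* and *Vim*. Each window was searched over the 250 bases before the start site, on both strands, for the E-box CAGGTG that Snail and Zeb factors bind, for any E-box CANNTG, for TGANTCA and for GGGCGG. Among 32851 windows of that length, 17.2% held CAGGTG, 66.2% CANNTG (which includes CAGGTG), 6.75% TGANTCA and 32.7% GGGCGG. The windows of *Snai1*, *Twist1* and *Twist2* are printed because *Snai1* was the only one of the 6 genes with CAGGTG, and because *Twist1* and *Twist2*, which are close relatives, differed in opposite directions between cultured kidney and tail. Capitals mark every match.
Snai1, chr2:167537945-167538194, plus strand: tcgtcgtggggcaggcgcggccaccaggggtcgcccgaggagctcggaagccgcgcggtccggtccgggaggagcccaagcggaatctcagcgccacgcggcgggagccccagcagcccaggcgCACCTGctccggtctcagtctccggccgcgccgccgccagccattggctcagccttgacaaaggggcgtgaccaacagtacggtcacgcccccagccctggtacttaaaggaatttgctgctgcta
Twist1, chr12:33957421-33957670, plus strand: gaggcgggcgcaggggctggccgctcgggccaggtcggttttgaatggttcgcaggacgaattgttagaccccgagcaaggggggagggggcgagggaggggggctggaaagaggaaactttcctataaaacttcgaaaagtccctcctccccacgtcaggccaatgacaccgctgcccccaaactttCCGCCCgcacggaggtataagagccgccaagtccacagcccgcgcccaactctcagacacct
Twist2, chr1:91801211-91801460, plus strand: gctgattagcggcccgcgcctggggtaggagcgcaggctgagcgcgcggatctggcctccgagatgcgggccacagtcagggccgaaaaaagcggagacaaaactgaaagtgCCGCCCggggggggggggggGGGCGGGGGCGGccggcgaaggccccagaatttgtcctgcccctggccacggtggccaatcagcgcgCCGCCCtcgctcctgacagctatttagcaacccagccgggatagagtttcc
The *Snai1* window held CAGGTG 1 time, read on the opposite strand. GGGCGG was found 1 time in the *Twist1* window and 4 times in the *Twist2* window, counting both strands. No CANNTG was found in the searched windows of the other 5 genes. These matches describe the letters of the windows and are not evidence of binding.

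In GRCm38 with the GENCODE M21 annotation, *Snai1* (ENSMUSG00000042821) lies at chr2:167538195-167542814, *Snai2* (ENSMUSG00000022676) at chr16:14705852-14709385, *Twist1* (ENSMUSG00000035799) at chr12:33957671-33959829, *Twist2* (ENSMUSG00000007805) at chr1:91801461-91848028 and *Zeb1* (ENSMUSG00000024238) at chr18:5591860-5775467, all on the plus strand. *Vim* (ENSMUSG00000026728) lies at chr2:13573927-13582826 on the plus strand. On the minus strand lie *Zeb2* (ENSMUSG00000026872) at chr2:44983632-45117395, *Prrx1* (ENSMUSG00000026586) at chr1:163245119-163313710, *Cdh2* (ENSMUSG00000024304) at chr18:16588877-16809246 and *Cdh11* (ENSMUSG00000031673) at chr8:102632095-102785642. All are protein coding. *Zeb2* overlaps the antisense gene *Zeb2os*, whose reads the stranded counting setting was meant to keep apart.

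The libraries held 17927838 to 32245168 counts each, so that 3 counts, used here as the floor of detection, correspond to 0.089 to 0.18 counts scaled to library size (CPM, with library sizes scaled by TMM factors). No member came near this floor: the lowest count was 56, for *Twist2* in HFs replicate 1, and the highest 179466, for *Vim* in TFc replicate 1. KFs replicate 3 stood apart. It held *Xist* at 1492 CPM, against at most 0.404 CPM in the other 17 libraries, and Y-linked genes at 0.722 CPM, against at least 175 CPM elsewhere, although the donors are labelled male. Its library name in the labels also has another form than those of the other libraries. Its log2 CPM correlated with KFs replicates 1 and 2 at 0.917 and 0.918, whereas those libraries correlated with each other at 0.973. Its summed fibroblast markers reached 17843 CPM, below the other KFs libraries (69120 and 92924 CPM), and the summed epithelial genes that the factors repress reached 451 CPM, against 45.8 and 56.9 CPM. Because all 18 libraries share 1 estimate of the spread, this library enters every test, and results are given with and without it where a call changed. Kidney tubule markers were also present after transplantation: the summed proximal tubule list was 128 to 1278 CPM in HFs, 65.9 to 137 CPM in KFs and 146 to 354 CPM in TFs, against 22.5 to 25.0 CPM, 104 to 112 CPM and 19.5 to 21.8 CPM in HFc, KFc and TFc. The highest of these, 1278 CPM, was HFs replicate 2. Summed leukocyte and macrophage markers were 92.9 to 164 CPM in HFs and 99.2 to 109 CPM in HFc, 12.1 to 149 CPM in KFs and 443 to 473 CPM in KFc, and 40.9 to 46.4 CPM in TFs and 181 to 212 CPM in TFc. All 8 fibroblast markers were above the floor in each transplanted library, and 7 or 8 in each cultured one.

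**Figure D1:**
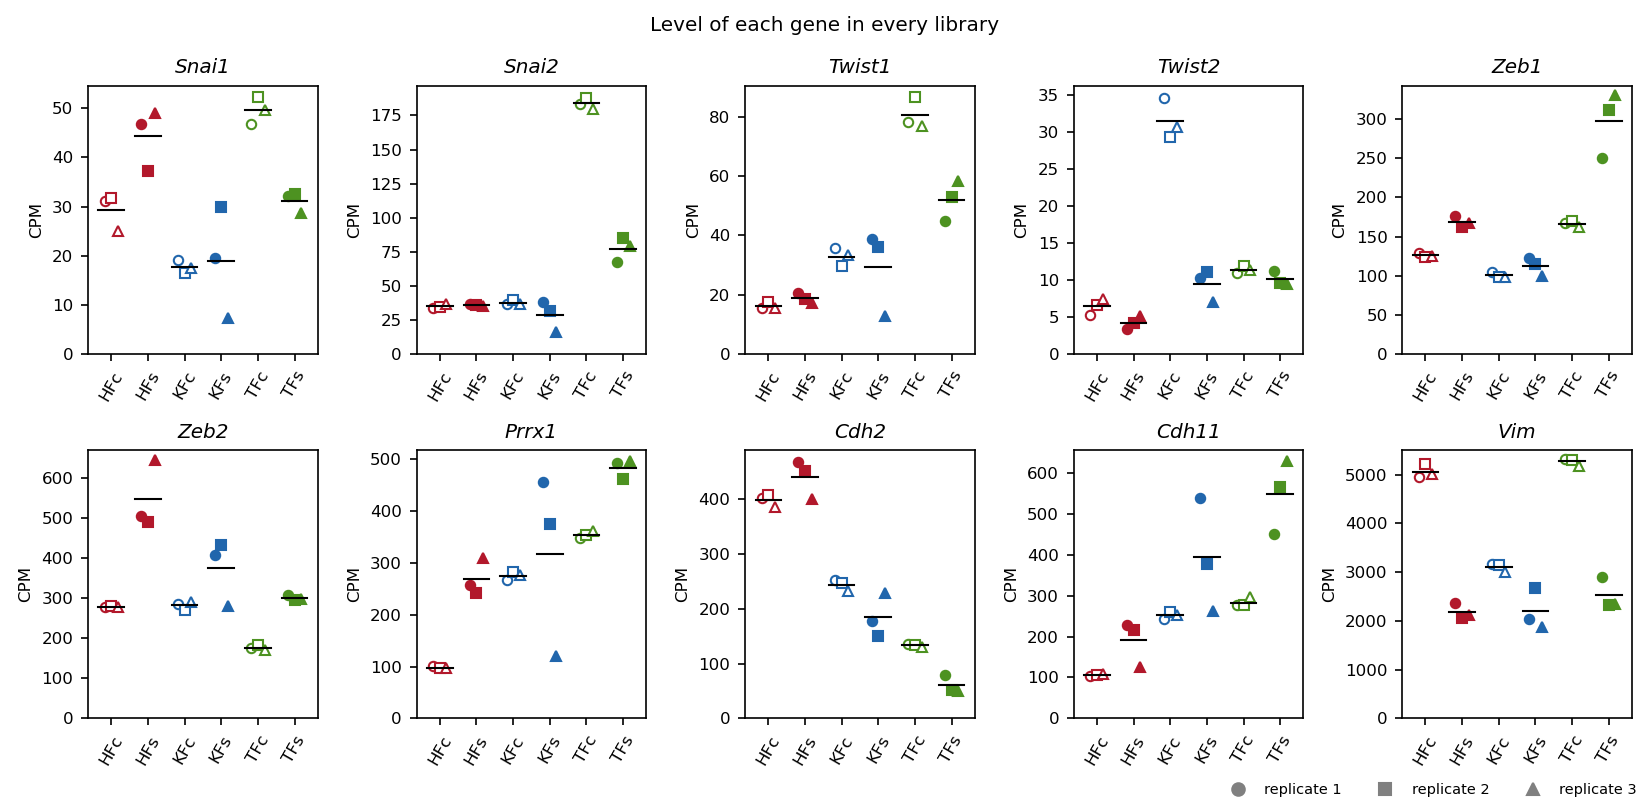
Level of each of the 10 genes in every library, in CPM on linear axes that start at 0, by group. Open symbols are cultured and filled symbols transplanted libraries (red heart, blue kidney, green tail), symbol shape gives the replicate and the bar is the mean of 3 libraries. *Vim* fell from 4952 to 5228 CPM in HFc to 2051 to 2372 CPM in HFs, while the highest *Snai2* values, 179.8 to 188 CPM, belonged to TFc.

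Among the 10 genes, some rose and others fell on transplantation, and *Snai1* and *Twist1* passed in none of the 3 organs. In heart fibroblasts (HFs against HFc), *Zeb1*, *Zeb2*, *Prrx1* and *Cdh11* rose and *Twist2* and *Vim* fell, 6 of 10 genes at an adjusted p under 0.05, where 56.4% of all tested genes passed. In kidney fibroblasts (KFs against KFc), *Zeb2* and *Cdh11* rose and *Twist2*, *Cdh2* and *Vim* fell, 5 of 10 genes against 48.8% of all tested genes. In tail fibroblasts (TFs against TFc), *Zeb1*, *Zeb2* and *Cdh11* rose and *Snai2*, *Cdh2* and *Vim* fell, 6 of 10 genes against 38.8% of all tested genes. *Zeb2* and *Cdh11* thus rose, and *Vim* fell, in each of the 3 organs. The median log2 fold change of the 10 genes was 0.32 in heart, -0.033 in kidney and -0.40 in tail, beside 0.047, 0.093 and 0 over all tested genes. Without KFs replicate 3, and with the smaller spread that this left, 7 genes passed in heart (*Snai1* added), 7 in kidney (*Snai1* and *Prrx1* added) and 9 in tail (*Snai1*, *Twist1* and *Prrx1* added), and none of the earlier calls was lost. The share of all tested genes that passed without this library was not counted, so the added calls cannot be read as particular to the 10 genes. With a log2 fold change past 1 in either direction also required, the counts were 2 (27.7%) in heart, 1 (22.6%) in kidney and 3 (16.5%) in tail, with the share of all tested genes in brackets. In kidney the count rested on single libraries: it was 3 without KFs replicate 1, 2 without KFs replicate 2, 3 without KFc replicate 1, 2 without KFc replicate 2 and 3 without KFc replicate 3. Where KFs and KFc alone were fitted, 1 gene passed. The share of all tested genes was not counted in these fits either.

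**Figure D2:**
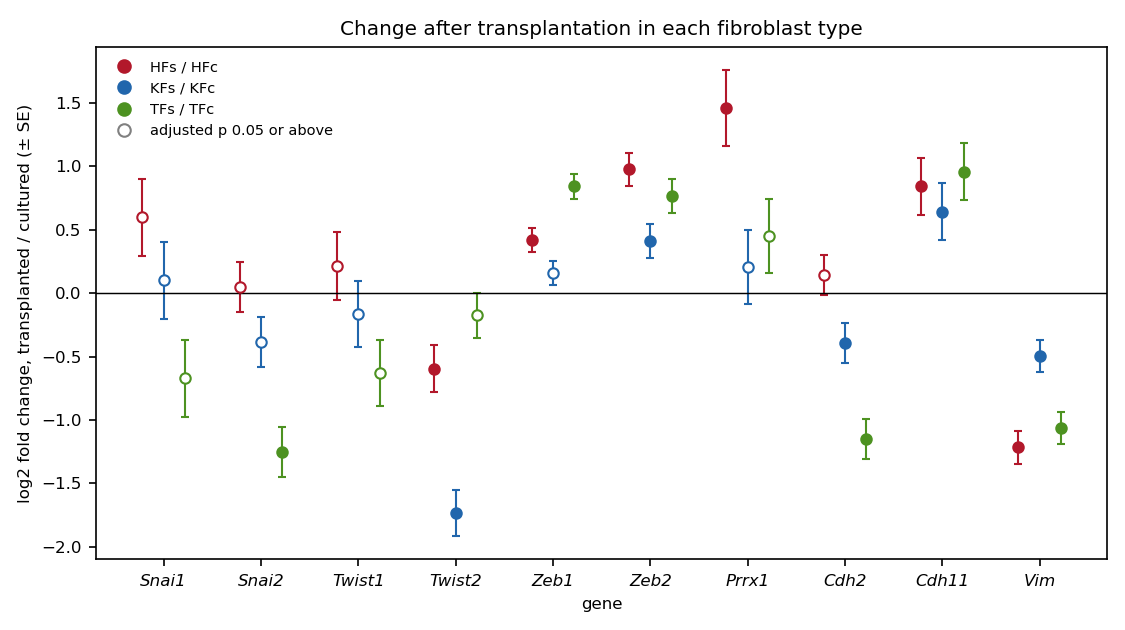
Log2 fold change of each gene in transplanted over cultured fibroblasts of the same organ, with its standard error, from the edgeR fit to all 18 libraries. Filled points had an adjusted p under 0.05; *Zeb2* and *Cdh11* lie above 0 and *Vim* below 0 in all 3 organs, and *Twist2* in kidney, at -1.73, is the lowest point.

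The organs differed in most of these genes before any transplantation. Cultured heart fibroblasts differed from cultured tail fibroblasts in 8 of 10 genes (41.9% of all tested genes passed): *Zeb2* and *Cdh2* were higher and *Snai2*, *Twist1*, *Twist2*, *Zeb1*, *Prrx1* and *Cdh11* lower in heart. Cultured kidney fibroblasts differed from tail in 8 of 10 genes (36.4%), with *Twist2*, *Zeb2* and *Cdh2* higher and *Snai1*, *Snai2*, *Twist1*, *Zeb1* and *Vim* lower. Heart and kidney in culture differed in 7 of 10 (29.2%), with *Zeb1*, *Cdh2* and *Vim* higher and *Twist1*, *Twist2*, *Prrx1* and *Cdh11* lower in heart. After 3 days under the capsule, HFs and TFs still differed in 8 genes (23.1%), and these were the same 8 genes in the same directions as in culture. KFs and TFs differed in 4 genes (29.1%), each in the direction seen in culture (*Cdh2* higher, *Snai2*, *Twist1* and *Zeb1* lower). HFs and KFs differed in 6 genes (33.2%): *Snai1*, *Zeb1*, *Zeb2* and *Cdh2* were higher and *Twist2* and *Cdh11* lower in heart, and 4 of these 6 also differed in the same direction in culture. Past a log2 fold change of 1 the counts were, with the share of all tested genes, 5 (19.5%) in HFc against TFc, 4 (16.3%) in KFc against TFc, 4 (14.9%) in HFc against KFc, 5 (10.4%) in HFs against TFs, 3 (11.9%) in KFs against TFs and 4 (12.6%) in HFs against KFs. Where only the groups compared were fitted, 9 genes passed in HFs against TFs, 3 in KFs against TFs and 2 in HFs against KFs. A fit to the transplanted libraries alone took the proximal tubule marker level of each library as a covariate. There, 5 genes passed in HFs against TFs, 2 in KFs against TFs and 0 in HFs against KFs. In these counts the effects of the covariate and of the fewer libraries were not separated. The share of all tested genes was not counted with the covariate or where only the groups compared were fitted. These counts therefore cannot tell a change in the members from a change in all genes. The calls lost had log2 fold changes of -1.07 (*Snai2*), -1.45 (*Twist1*) and -0.81 (*Prrx1*) in HFs against TFs and of -1.40 (*Snai2*) and -0.80 (*Twist1*) in KFs against TFs, and in HFs against KFs log2 fold changes of 1.42, 0.66, 0.67, 1.15, -1.11 and -1.26 for *Snai1*, *Zeb1*, *Zeb2*, *Cdh2*, *Twist2* and *Cdh11*. Without KFs replicate 3, 9 genes passed in HFc against TFc and 9 in KFc against TFc, 8 in HFc against KFc, 9 in HFs against TFs, 5 in KFs against TFs and 8 in HFs against KFs, with no call lost. For this fit, too, the share of all tested genes was not counted.

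**Figure D3:**
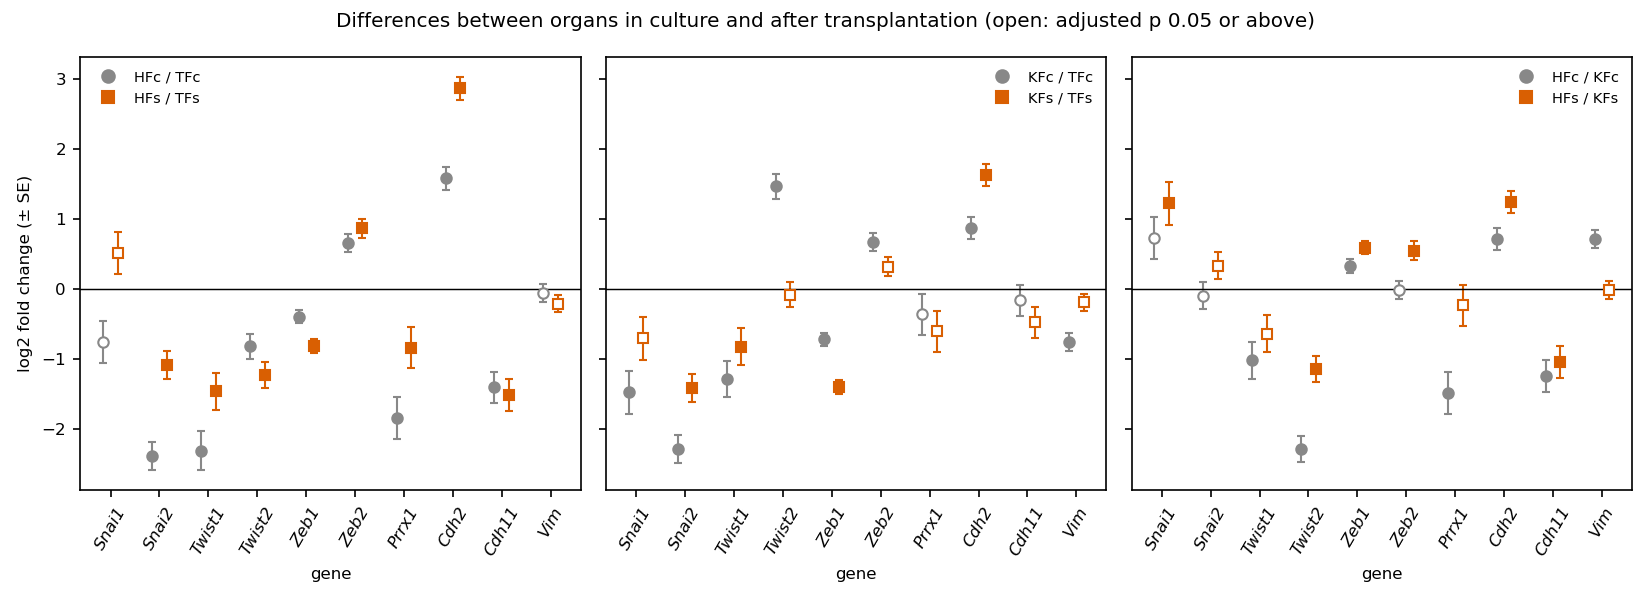
Log2 fold change between organs for each gene, in culture (grey circles) and after transplantation (orange squares), with standard errors; filled symbols had an adjusted p under 0.05. The *Cdh2* difference of heart over tail was 1.58 in culture and 2.87 after transplantation, whereas the *Snai2* difference was -2.39 and -1.09.

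*Snai1* encodes Snail, the best known repressor of E-cadherin, and is short-lived both as mRNA and as protein. Its level was 31.2, 31.7 and 25.1 CPM in HFc and 46.7, 37.3 and 49.0 CPM in HFs, 46.9, 52.3 and 49.6 CPM in TFc and 32.2, 32.5 and 28.7 CPM in TFs, in each case for replicates 1 to 3. The groups did not overlap in either organ, and the directions were opposite: heart values were higher and tail values lower after transplantation. In the fit to all libraries neither change passed, with a log2 fold change of 0.60 ± 0.30 (SE, adjusted p = 0.104) in heart and -0.67 ± 0.30 (SE, adjusted p = 0.0896) in tail. Leaving out KFs replicate 3, which belongs to neither comparison but enters the shared spread, gave 0.61 (adjusted p = 0.00116) and -0.69 (adjusted p = 0.000714). In kidney, KFc held 19.2, 16.6 and 17.5 CPM and KFs 19.6, 29.9 and 7.42 CPM. The KFs libraries spanned the whole KFc range, and the log2 fold change moved from 0.10 to 0.44 (adjusted p = 0.0264) without KFs replicate 3 and to -0.44 without KFs replicate 2. The mean levels fell in the order TFc, HFs, TFs, HFc, KFs, KFc, and of the neighbours in that order only HFs and TFs did not overlap.

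*Snai2* encodes Slug, the relative of Snail that is prominent in neural crest and skin. TFc libraries held 184, 188 and 179.8 CPM and TFs libraries 67.3, 85.0 and 79.4 CPM, so the lowest cultured value was above the highest transplanted one. The fall had a log2 fold change of -1.25 ± 0.20 (SE, adjusted p = 0.000149). Even so, both tail groups stayed above all heart and kidney libraries, which ranged from 16.3 CPM in KFs replicate 3 to 39.5 CPM in KFc replicate 2. In heart, HFc (33.9, 34.7 and 36.5 CPM) and HFs (36.8, 36.2 and 35.7 CPM) overlapped, with a log2 fold change of 0.047 ± 0.20 (SE, adjusted p = 0.856). KFc held 36.7, 39.5 and 36.6 CPM and KFs 38.3, 31.7 and 16.3 CPM, with a log2 fold change of -0.38 ± 0.20 (SE, adjusted p = 0.119), and of -0.15 (adjusted p = 0.225) without KFs replicate 3. Leaving out KFs replicate 1 instead gave -0.64 (adjusted p = 0.011). The difference of heart from tail was the largest of any member in culture, at -2.39 ± 0.20 (SE, adjusted p = 1.95e-07), and that of kidney from tail was -2.29 ± 0.20 (SE, adjusted p = 5.23e-07).

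*Twist1*, needed for cranial neural tube, limb and neural crest mesenchyme, was, like *Snai2*, most abundant in tail. It measured 78.2, 86.7 and 76.8 CPM in TFc and 44.8, 52.9 and 58.2 CPM in TFs. Both ranges lay above every other library, of which the highest was 38.8 CPM in KFs replicate 1. KFc held 35.7, 29.6 and 33.3 CPM, KFs 38.8, 36.1 and 12.9 CPM, HFc 15.4, 17.5 and 15.6 CPM and HFs 20.6, 18.6 and 17.3 CPM. KFs replicate 3 was the lowest library of all, and the other KFs libraries were above every KFc library. Cultured heart was below cultured tail with a log2 fold change of -2.31 ± 0.27 (SE, adjusted p = 6.22e-06), and transplanted heart below transplanted tail with a log2 fold change of -1.47 ± 0.27 (SE, adjusted p = 0.000955). The tail values did not overlap between states, with a log2 fold change of -0.63 ± 0.26 (SE, adjusted p = 0.0664), and of -0.65 (adjusted p = 9.39e-05) without KFs replicate 3. The kidney change was -0.17 over 3 KFs libraries and 0.14 over the 2 that remained without replicate 3, and it passed in neither case. *Twist1* in KFs against TFs had a log2 fold change of -0.83 ± 0.26 (SE, adjusted p = 0.0272), and lost its call without TFs replicate 2 (-0.82, adjusted p = 0.069) or TFs replicate 3 (-0.74, adjusted p = 0.0983). The call was also lost where only KFs and TFs were fitted (-0.82, adjusted p = 0.241). Without KFs replicate 3 the difference was smaller, at -0.47, and kept its call (adjusted p = 0.0052).

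*Twist2*, a close relative of *Twist1* that acts in dermal and craniofacial mesenchyme, had a pattern of its own. KFc libraries held 34.6, 29.4 and 30.6 CPM, above every other library of the series. KFs libraries held 10.2, 11.1 and 7.06 CPM, so that all 3 were below all KFc libraries. The fall in kidney had a log2 fold change of -1.73 ± 0.18 (SE, adjusted p = 1.83e-06), the largest transplantation change among the 10 genes, and -1.60 (adjusted p = 7.97e-07) without KFs replicate 3. HFc held 5.25, 6.67 and 7.47 CPM and HFs 3.37, 4.19 and 5.16 CPM, and the highest transplanted value lay just below the lowest cultured one. That change was -0.60 ± 0.19 (SE, adjusted p = 0.0131), and it lost its call without HFs replicate 1 (-0.40, adjusted p = 0.109), HFs replicate 2 (-0.53, adjusted p = 0.0647) or HFc replicate 3 (-0.49, adjusted p = 0.0594), and where only HFs and HFc were fitted (-0.54, adjusted p = 0.0673). In tail, TFc (11.0, 11.9 and 11.4 CPM) and TFs (11.2, 9.59 and 9.50 CPM) overlapped. Kidney exceeded tail in culture with a log2 fold change of 1.47 ± 0.18 (SE, adjusted p = 1.32e-05), whereas after transplantation the log2 fold change was -0.089 ± 0.18 (SE, adjusted p = 0.752), and 0.086 (adjusted p = 0.716) without KFs replicate 3.

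*Zeb1* and *Zeb2* encode large repressors that act downstream of Snail factors and of TGF-beta signalling. For *Zeb1*, TFc libraries held 167, 169 and 162 CPM and TFs libraries 250.2, 311 and 330.3 CPM, and the groups did not overlap. The rise had a log2 fold change of 0.84 ± 0.096 (SE, adjusted p = 8.14e-06). HFc held 129, 124 and 125 CPM and HFs 176, 162 and 167 CPM, again without overlap, with a log2 fold change of 0.42 ± 0.096 (SE, adjusted p = 0.00169). KFc (105, 97.8 and 98.2 CPM) and KFs (123, 114 and 99.2 CPM) overlapped, and the change of 0.16 ± 0.096 (SE, adjusted p = 0.186) did not pass, and without KFs replicate 3 it was 0.20 (adjusted p = 0.0949). Among transplanted cells *Zeb1* was lower in kidney than in tail with a log2 fold change of -1.41 ± 0.097 (SE, adjusted p = 1.36e-07), and lower in heart than in tail with a log2 fold change of -0.82 ± 0.096 (SE, adjusted p = 1.6e-05). In culture heart exceeded kidney with a log2 fold change of 0.33 ± 0.096 (SE, adjusted p = 0.0173), a call that was lost without HFc replicate 1 (0.31, adjusted p = 0.0607), KFc replicate 2 (0.31, adjusted p = 0.0631) or KFc replicate 3 (0.31, adjusted p = 0.0625).

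With all libraries, *Zeb2* was the only one of the 7 transcription factors called as rising in all 3 organs. Without KFs replicate 3, *Prrx1* was so called as well. Its log2 fold changes were then 1.47 (adjusted p = 1.55e-09) in heart, 0.55 (adjusted p = 0.000174) in kidney and 0.43 (adjusted p = 0.000757) in tail. For *Zeb2*, HFc libraries held 277, 279.7 and 278 CPM and HFs libraries 505, 489 and 645 CPM. Every transplanted heart library was above every other library of the series, and the log2 fold change was 0.97 ± 0.13 (SE, adjusted p = 1.79e-05). TFc held 176, 184 and 171 CPM and TFs 308, 296 and 297 CPM, with no overlap and a log2 fold change of 0.76 ± 0.13 (SE, adjusted p = 0.000356). KFc held 285, 270.0 and 291 CPM and KFs 408, 434 and 281 CPM, where KFs replicate 3 lay within the KFc range. The kidney rise with a log2 fold change of 0.41 ± 0.13 (SE, adjusted p = 0.0182) became 0.53 (adjusted p = 0.000171) without that library, and missed the threshold without KFs replicate 1 (0.34, adjusted p = 0.0678), KFs replicate 2 (0.24, adjusted p = 0.157) or KFc replicate 2 (0.38, adjusted p = 0.0649). It also missed the threshold where only KFs and KFc were fitted (0.41, adjusted p = 0.14). Macrophages and endothelial cells also express *Zeb2*. The summed leukocyte and macrophage list, given above for all groups, was 92.9 to 164 CPM in HFs against 99.2 to 109 CPM in HFc. Summed endothelial markers were 59.5 to 68.8 CPM in HFs against 39.8 to 42.8 CPM in HFc, 25.8 to 47.3 CPM in KFs against 35.3 to 37.7 CPM in KFc, and 43.0 to 47.0 CPM in TFs against 38.0 to 43.1 CPM in TFc. The part of macrophages and endothelial cells in the *Zeb2* values was not tested.

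*Prrx1* gave the largest rise of any of the 10 genes on transplantation, in heart. HFc libraries held 100.2, 97.6 and 96.4 CPM and HFs libraries 258, 241 and 308 CPM. The groups did not overlap, and the log2 fold change was 1.46 ± 0.30 (SE, adjusted p = 0.000684). HFc was the group with the least *Prrx1*, below cultured tail with a log2 fold change of -1.85 ± 0.30 (SE, adjusted p = 0.000141), and below cultured kidney with a log2 fold change of -1.49 ± 0.30 (SE, adjusted p = 0.0014). TFc held 347, 353 and 362 CPM and TFs 491, 461 and 496 CPM, without overlap, with a log2 fold change of 0.45 ± 0.29 (SE, adjusted p = 0.241), and of 0.43 (adjusted p = 0.000757) without KFs replicate 3. KFc held 268, 281 and 277 CPM and KFs 455, 374 and 121 CPM. KFs replicates 1 and 2 were above, and replicate 3 below, every KFc library. The kidney change of 0.20 was 0.55 (adjusted p = 0.000174) without replicate 3 and -0.15 without replicate 1. HFs remained below TFs with a log2 fold change of -0.84 ± 0.29 (SE, adjusted p = 0.0495), a difference whose call was lost when any 1 of the 6 HFs and TFs libraries was left out, with adjusted p between 0.0825 and 0.183.

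**Figure D4:**
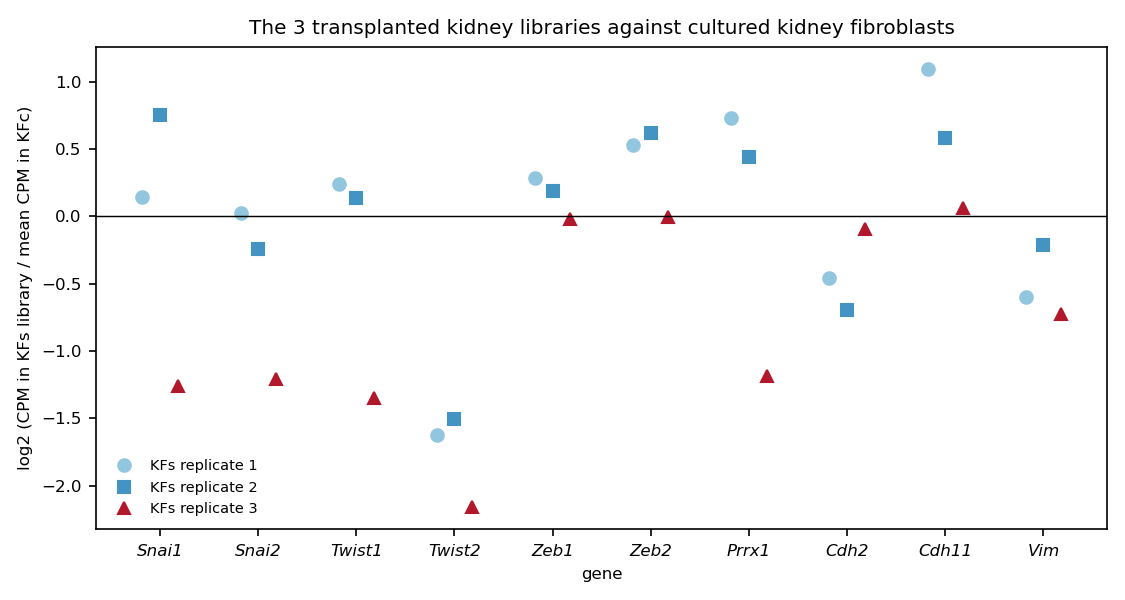
Log2 of the CPM in each KFs library over the mean CPM of the 3 KFc libraries, for each gene; the line at 0 is the KFc mean. KFs replicate 3 lies below both other libraries for *Snai1*, *Snai2*, *Twist1*, *Twist2*, *Zeb1*, *Zeb2*, *Prrx1*, *Cdh11* and *Vim* and above both for *Cdh2*.

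*Cdh2* encodes N-cadherin, which joins cardiac myocytes, neurons and many mesenchymal cells, and is also made by the proximal tubule of the mouse kidney. Heart fibroblasts held the most, with 402, 406 and 385 CPM in HFc and 467, 449.7 and 399 CPM in HFs. The ranges overlapped and the change was 0.14 ± 0.16 (SE, adjusted p = 0.456). In tail, TFc libraries held 135, 134 and 130.4 CPM and TFs libraries 78.7, 51.6 and 50.1 CPM. All transplanted values were below all cultured ones, a fall with a log2 fold change of -1.15 ± 0.16 (SE, adjusted p = 4.88e-05). The part of host tubule RNA in the *Cdh2* values of the transplanted groups was not tested. KFc held 251, 247 and 231 CPM and KFs 177, 150.4 and 228 CPM. The groups did not overlap, with a log2 fold change of -0.39 ± 0.16 (SE, adjusted p = 0.0473), and of -0.61 (adjusted p = 0.00186) without KFs replicate 3. The kidney call was lost without any one of the other KFs and KFc libraries, with log2 fold changes of -0.43 to -0.31 and adjusted p of 0.0653 to 0.111. The order of mean levels was HFs, HFc, KFc, KFs, TFc, TFs, and only HFs and HFc overlapped among neighbours. The difference of transplanted heart over transplanted tail, 2.87 ± 0.17 (SE, adjusted p = 1.49e-08), a fold of 7.29, was the largest of all member differences.

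*Cdh11* encodes the cadherin of osteoblasts, synovial fibroblasts and other mesenchymal cells. By mean level it ran opposite to *Cdh2* between organs, with the most in tail and the least in heart within each state. TFc libraries held 277, 276 and 295 CPM and TFs libraries 451, 565 and 628 CPM, with no overlap and a rise with a log2 fold change of 0.95 ± 0.22 (SE, adjusted p = 0.00355). HFc held 104, 106 and 109 CPM and HFs 228, 217 and 126 CPM, also without overlap, although HFs replicate 3 lay close to the cultured values. The heart rise had a log2 fold change of 0.84 ± 0.22 (SE, adjusted p = 0.00489). KFc held 243, 261 and 253 CPM and KFs 539, 378 and 263 CPM, with KFs replicate 3 just above the highest KFc library. The kidney rise with a log2 fold change of 0.64 ± 0.22 (SE, adjusted p = 0.0268) was 0.82 (adjusted p = 0.00237) without KFs replicate 3, 0.34 (adjusted p = 0.184) without KFs replicate 1 and 0.62 (adjusted p = 0.056) without KFs replicate 2. Leaving out any KFc library gave 0.61 to 0.66 with adjusted p of 0.0566 to 0.0775. Heart was below tail with a log2 fold change of -1.41 ± 0.23 (SE, adjusted p = 0.000127) in culture and with a log2 fold change of -1.52 ± 0.23 (SE, adjusted p = 0.000161) after transplantation. Kidney against tail did not pass, at -0.16 (adjusted p = 0.603) in culture and -0.48 (adjusted p = 0.123) after transplantation. The culture difference passed where only KFc and TFc were fitted (-0.13, adjusted p = 0.00941). After transplantation it was -0.26 (adjusted p = 0.345) without KFs replicate 3 and -0.77 (adjusted p = 0.0114) without KFs replicate 1.

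*Vim*, the main intermediate filament gene of mesenchymal cells, was by far the most abundant of the 10 in every group. Per length of exon and scaled to a common sum, its mean level ranged from 1333 in HFs to 3613 in TFc, which placed it among the 50 most abundant of 16301 tested genes with a known length in each group. HFc libraries held 4952, 5228 and 5012 CPM and HFs libraries 2372, 2051 and 2117 CPM, a fall with a log2 fold change of -1.22 ± 0.13 (SE, adjusted p = 1.58e-06). TFc libraries held 5326, 5307 and 5186 CPM and TFs libraries 2893, 2327 and 2353 CPM, a fall with a log2 fold change of -1.06 ± 0.13 (SE, adjusted p = 1.49e-05). In both organs the highest transplanted value was below the lowest cultured value by more than the spread within either group. KFc started lower, at 3168, 3147 and 3003 CPM, and KFs held 2047, 2684 and 1878 CPM. This smaller fall with a log2 fold change of -0.50 ± 0.13 (SE, adjusted p = 0.00477) was -0.44 (adjusted p = 0.00383) without KFs replicate 3, and had an adjusted p of 0.0939 where only KFs and KFc were fitted. After transplantation the 3 organs overlapped: the log2 fold change was -0.21 for HFs against TFs, -0.20 for KFs against TFs and -0.015 for HFs against KFs, none of which passed. In culture KFc was below TFc with a log2 fold change of -0.76 ± 0.13 (SE, adjusted p = 0.000279), and HFc above KFc with a log2 fold change of 0.71 ± 0.13 (SE, adjusted p = 0.000651).

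The balance between related genes was compared per length, as the log2 ratio of counts per kilobase of exon within a library. *Cdh2* exceeded *Cdh11* in all heart libraries, with a mean log2 ratio of 2.05 ± 0.071 (SD, n = 3) in HFc and 1.39 ± 0.35 in HFs. In tail *Cdh11* exceeded *Cdh2*, with -0.94 ± 0.080 in TFc and -3.06 ± 0.60 in TFs. In kidney the ratio was 0.089 ± 0.092 in KFc and -0.90 ± 0.74 in KFs, where replicate 3 alone stayed near 0 at -0.066. The ratio was thus lower in transplanted than in cultured libraries of every organ, with no overlap in any of the 3. *Zeb1* exceeded *Zeb2* only in tail, at 0.86 ± 0.027 in TFc and 0.93 ± 0.24 in TFs, whereas *Zeb2* exceeded *Zeb1* in heart (-0.19 ± 0.038 in HFc, -0.73 ± 0.23 in HFs) and kidney (-0.53 ± 0.068 in KFc, -0.76 ± 0.21 in KFs). *Twist1* exceeded *Twist2* in every library, by the least in KFc (1.02 ± 0.058) and by the most in TFc (3.78 ± 0.056). *Snai2* exceeded *Snai1* in tail (-1.57 ± 0.069 in TFc, -0.99 ± 0.22 in TFs) and in KFc (-0.77 ± 0.16), and *Snai1* exceeded *Snai2* in all HFs libraries (0.60 ± 0.21). The use of the longest transcript in place of all exons changed no sign of these group means.

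**Figure D5:**
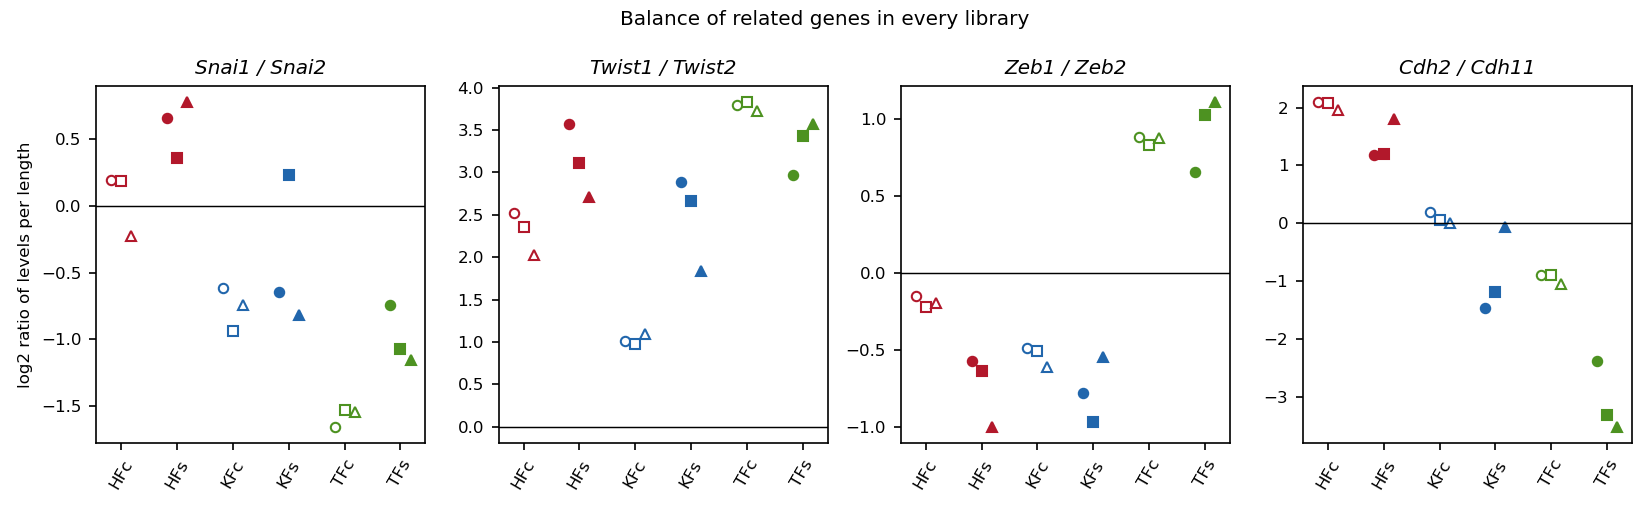
Log2 ratio of the levels per length of 4 pairs of related genes in every library (open cultured, filled transplanted; red heart, blue kidney, green tail; shapes are replicates). For *Cdh2* over *Cdh11* the ratio runs from 2.05 on average in HFc to -3.06 in TFs, and for *Zeb1* over *Zeb2* only the tail libraries lie above 0.

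Whether the organs responded differently was tested as an interaction of organ and state. Heart and tail differed in 4 of 10 genes (22.8% of all tested genes): *Snai1* (1.27 ± 0.43 SE on the log2 scale, adjusted p = 0.0428), *Snai2* (1.30 ± 0.28, adjusted p = 0.00373) and *Cdh2* (1.29 ± 0.22, adjusted p = 0.000793) changed in the higher direction in heart relative to tail, and *Zeb1* (-0.42 ± 0.14, adjusted p = 0.0342) in the lower. Kidney and tail differed in 3 of 10 genes (11.1%), with *Cdh2* higher and *Twist2* and *Zeb1* lower in the kidney response. Heart and kidney differed in 4 of 10 genes (26.2%), with *Twist2*, *Zeb2* and *Prrx1* higher and *Vim* lower in the heart response. Past a log2 difference of 1 the counts were 3 (11.3%) for heart and tail, 1 (5.91%) for kidney and tail and 2 (13.1%) for heart and kidney. For *Snai2* the heart values hardly moved while the tail values fell, so the gap between these organs narrowed from -2.39 to -1.09. For *Cdh2* the gap widened from 1.58 to 2.87. Without KFs replicate 3 the kidney and tail responses differed in 7 genes, with *Snai1*, *Snai2*, *Twist1* and *Vim* added, heart and tail in 6, with *Twist1* and *Prrx1* added, and heart and kidney in 5, with *Cdh2* added (0.77, adjusted p = 0.0047). The share of all tested genes that passed without this library was not counted. The calls of *Snai1* and *Zeb1* for heart against tail lapsed together when TFs replicate 2 or 3, any TFc, HFs replicate 1 or 3, or any HFc library was left out, which left 2 genes. *Snai1* alone lapsed without TFs replicate 1 and *Zeb1* alone without HFs replicate 2. Those of *Zeb2* and *Prrx1* for heart against kidney lapsed together, leaving 2 genes, when any HFc or any KFc library was left out, and also without HFs replicate 3, where *Cdh2* passed instead. That of *Cdh2* for kidney against tail lapsed, leaving 2 genes, without TFs replicate 2 or 3 or any TFc or KFc library. The 3 interactions share libraries and are not independent of each other.

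Genes that work with the factors changed more uniformly at one point, *Id1*, an inhibitor of basic helix-loop-helix proteins that takes away the E protein partners of Twist. Its mean level went from 45.7 CPM to 3.58 CPM in heart cells, from 46.4 CPM to 2.06 CPM in kidney cells and from 50.6 CPM to 3.58 CPM in tail cells. The falls had log2 fold changes of -3.65, -4.50 and -3.82, with adjusted p of 6.68e-08, 2.11e-08 and 1.30e-07 for heart, kidney and tail, and *Id1* had the lowest value of its list each time. Of the 19 partners and regulators on that list, 5 rose and 11 fell in heart (56.4% of all tested genes passed). In kidney 7 rose and 3 fell (48.8%), and in tail 4 rose and 6 fell (38.8%). The list medians were -0.45, 0.092 and -0.097, beside 0.047, 0.093 and 0 over all tested genes. The highest member in heart was *Tcf4*, an E protein gene, at 0.57 (adjusted p = 5.12e-05), and in kidney and tail *Ezh2*, a histone methyltransferase gene, at 0.83 (adjusted p = 0.000541) and 0.57 (adjusted p = 0.0113). In culture *Tcf4* was the lowest of the list in kidney against tail, at -1.54 (adjusted p = 7.85e-09).

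Of 13 tested genes among 14 related mesenchymal factors, 1 rose and 6 fell in heart (56.4% of all tested genes passed). In kidney 4 rose and 7 fell (48.8%), and in tail 1 rose and 5 fell (38.8%). In tail the lowest was *Prrx2*, the relative of *Prrx1*, at -1.36 (adjusted p = 0.00786), while *Prrx1* itself had a log2 fold change of 0.45 that did not pass. *Tcf21*, a factor of heart and kidney stroma, had no count in any tail library and 138 CPM in HFc and 80.2 CPM in HFs, at least 1051-fold higher in HFc than in TFc and at least 499.7-fold higher in HFs than in TFs when tail is set at the floor of 3 counts per library. *Hand2*, a cardiac mesenchyme factor, was the most heart-biased gene of the list against kidney, with a log2 fold change of 8.20 in culture (adjusted p = 1.95e-10) and 5.93 after transplantation (adjusted p = 4.02e-09).

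The catenins, which tie cadherins to actin, included no gene that rose on transplantation. Of 8 catenin complex genes, 6 fell in heart (56.4% of all tested genes passed), 6 in kidney (48.8%) and 4 in tail (38.8%). The list medians were -0.79, -1.07 and -0.45, beside 0.047, 0.093 and 0 over all tested genes. *Ctnnd2*, which encodes delta-catenin, had the lowest value in each organ, at -3.83 (adjusted p = 1.16e-06), -1.87 (adjusted p = 0.00051) and -2.72 (adjusted p = 0.00213), from mean levels of 15.5, 9.67 and 0.658 CPM in HFc, KFc and TFc. *Ctnnb1*, which encodes beta-catenin, was the highest of the list in kidney at 0.13 (adjusted p = 0.149). In culture 7 of the 8 were higher in heart (41.9% of all tested genes passed) and 6 of the 8 higher in kidney (36.4%) than in tail. None was lower.

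Of 12 tested genes among 14 other cadherins, 6 rose in heart (56.4% of all tested genes passed). In kidney 4 rose (48.8%), and in tail 3 rose and 1 fell (38.8%). The highest in heart and tail was *Cdh16*, a cadherin of kidney epithelium, which had no count in any HFc or TFc library and was at least 61.6-fold higher in HFs and 36.1-fold higher in TFs when the cultured libraries are set at 3 counts each. KFc held it at 17.4 CPM and KFs replicates 1 to 3 at 7.56, 4.52 and 58.8 CPM. The kidney change of *Cdh16* was 0.44 (adjusted p = 0.713). Of the proximal tubule list, 12 of 12 genes rose in heart (56.4% of all tested genes passed), 10 of 12 in kidney (48.8%) and 12 of 12 in tail (38.8%). The part of host tubule RNA in these cadherin values was not tested.

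Among 15 tested of 23 epithelial genes that Snail, Zeb and Twist factors repress, 4 rose and 1 fell in heart (56.4% of all tested genes passed). In kidney 2 rose and 2 fell (48.8%), and in tail 3 rose and 3 fell (38.8%). *Cdh1*, the best known target, was the highest of the list in tail, with 0 to 1 count in each TFc library and a mean of 2.49 CPM in TFs. In HFs it had a mean of 4.33 CPM, with libraries from 0.541 to 7.40 CPM, and in HFc at most 2 counts. In KFc its mean was 2.34 CPM, and KFs replicates 1 to 3 held 1.90, 1.54 and 9.54 CPM, so that replicate 3 alone lay above the KFc mean. The part of host tubule RNA in the values of *Cdh1* and the other epithelial genes was not tested. In culture 8 of the 15 genes were higher and 2 lower in kidney than in tail (36.4% of all tested genes passed). Against heart, 7 of 15 were higher in kidney (29.2%). The sum of the 23 genes ran the other way against tail, at 114 to 125 CPM in KFc and 147 to 151 CPM in TFc, beside 42.0 to 55.8 CPM in HFc. The highest against tail was *Krt18*, a keratin of simple epithelia, with no count in TFc and at least 32.9 times the floor in KFc. KFs replicate 3 held *Krt8* at 70.2 CPM, *Krt18* at 27.8 CPM and *Dsp*, a desmosome gene, at 187 CPM, whereas KFs replicates 1 and 2 held *Krt8* at 4.29 and 1.31 CPM.

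The products that mark a mesenchymal transition moved both ways. Of 16 genes, 5 rose and 6 fell in heart (56.4% of all tested genes passed). In kidney 4 rose and 5 fell (48.8%), and in tail 5 rose and 6 fell (38.8%). *Tgfbi*, a matrix protein induced by TGF-beta, had the highest value in each organ, at 4.43 (adjusted p = 4.57e-10), 1.40 (adjusted p = 1.56e-05) and 1.65 (adjusted p = 5.02e-06). *S100a4*, also called fibroblast-specific protein, was the lowest in heart at -4.58 (adjusted p = 3.76e-08) and in kidney at -5.60 (adjusted p = 1.72e-08), and *Thbs1*, a matricellular gene, was the lowest in tail at -3.52 (adjusted p = 1.00e-07). Among 9 tested intermediate filament and linker genes other than *Vim*, 1 rose and 4 fell in heart (56.4% of all tested genes passed). In kidney 2 rose and 4 fell (48.8%), and in tail 3 rose and 2 fell (38.8%). The lowest in heart and kidney was *Sync*, at -1.54 (adjusted p = 6.38e-05) and -2.09 (adjusted p = 6.99e-06), and in tail *Lmna*, the gene of lamins A and C, at -1.29 (adjusted p = 7.09e-07). The highest was *Des*, the desmin gene of muscle and pericytes, in heart (1.95, adjusted p = 0.000834), and *Synm* in tail (1.73, adjusted p = 0.00301).

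Genes whose log2 CPM followed a member most closely over the 18 libraries were named as a description, since the libraries fall into 6 groups and share normalization. *Cdh11* was closest to *Flrt2*, with a Pearson r of 0.979, *Snai2* to *Syne3* at 0.975 and *Prrx1* to *Tbkbp1* at 0.974. *Vim* was closest to *Fads1* and *Zeb1* to *Ank2*, both at 0.965, and *Zeb2* to *Pde1a* at 0.957. The lowest of these best values were 0.942 for *Cdh2* with *Pde5a*, and 0.936 for both *Snai1* with *Sod3* and *Twist2* with *Lxn*.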

How the data were processed

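Total RNA of 18 samples (6 groups of 3) was made into stranded libraries and sequenced in single reads of 75 bases. Per the study's methods, the authors trimmed reads, aligned them to GRCm38 with Bowtie2 and estimated counts per gene with RSEM, taking strand into account, while the submitters' processing notes also list mm9. The deposited values are expected counts, all of them whole numbers, with no normalization. Symbols and positions came from GENCODE M21, which matched 37607 of 38924 gene identifiers (1317 did not match).

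The counts were filtered with filterByExpr, scaled with TMM factors and fitted with edgeR 4.0.16 in R 4.3.3 by the quasi-likelihood method, with all 18 libraries and 1 mean per group. Contrasts were 9 differences between groups and 3 interactions of organ and state. Two-sided p-values were adjusted by Benjamini-Hochberg over 16577 genes, and an adjusted p under 0.05 was a call. CPM are counts scaled to the TMM-adjusted library size, log2 CPM used a prior count of 2, and levels per length used the union of exons. DESeq2 1.42.0 was an alternative, beside other scalings, filters, thresholds, a replicate block, a tubule covariate and each library left out. The fits without KFs replicate 3 in comparisons that do not use KFs were added after its sex-linked genes had been seen.

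The 10 genes, the gene lists and the tests were chosen with earlier results of these data known. All 10 genes are named. From each list only the highest and lowest genes of a comparison and genes at the floor of 3 counts were to be named, and, for likeness, the closest genes by Pearson correlation. The closest gene to *Twist1* is not reported here. The fit was tested on a single set of simulated counts for HFs against HFc (16209 genes, 200 of them changed). All groups had the same mean apart from those changes, and genes with few counts were not changed. The fit found 88 of 100 genes changed 4-fold and 66 of 100 changed 2-fold, with 6 false calls. In the data 56.4% of tested genes passed in this comparison, so these figures may not carry over. The depth of 17927838 to 32245168 counts and the number of libraries set the precision. Counts of reads without molecular identifiers are not independent molecules.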

Additional observations from a re-analysis of the deposited data

Results flagged for a closer look

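Each result in this part was marked because the test of the difference between the transplantation changes of a pair of organs passed, by edgeR with Benjamini-Hochberg adjustment over all tested genes. Differences are on the log2 scale with 3 libraries in each group. Comparing heart with tail, the change of *Snai1* differed by 1.27 (adjusted p = 0.0428), of *Snai2* by 1.30 (adjusted p = 0.00373), of *Cdh2* by 1.29 (adjusted p = 0.000793) and of *Zeb1* by -0.42 (adjusted p = 0.0342). Comparing kidney with tail, the change of *Twist2* differed by -1.56 (adjusted p = 0.00115), of *Zeb1* by -0.68 (adjusted p = 0.00467) and of *Cdh2* by 0.75 (adjusted p = 0.0389). Comparing heart with kidney, the change of *Twist2* differed by 1.14 (adjusted p = 0.00433), of *Zeb2* by 0.57 (adjusted p = 0.0355), of *Prrx1* by 1.25 (adjusted p = 0.036) and of *Vim* by -0.72 (adjusted p = 0.00851). The comparisons with kidney include KFs replicate 3, and the 3 sets share libraries.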

How the results depend on the processing

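With a log2 fold change past 1 required as well, the genes called numbered 2 in HFs against HFc, 1 in KFs against KFc, 3 in TFs against TFc, 5 in HFc against TFc, 4 in KFc against TFc, 4 in HFc against KFc, 5 in HFs against TFs, 1 for kidney against tail responses and 2 for heart against kidney responses. At an adjusted p under 0.01 they were 2 in KFs against KFc, 2 for heart against tail and 2 for heart against kidney responses. Fitting only the groups compared left 1 in KFs against KFc and 2 in HFs against KFs. The tubule covariate, fitted to the transplanted libraries alone, left 5 in HFs against TFs, 2 in KFs against TFs and 0 in HFs against KFs. Library size alone, and DESeq2, each gave 5 for kidney against tail responses. With 1 library of the compared groups left out, the counts ranged from 5 to 6 in HFs against HFc, 2 to 7 in KFs against KFc, 6 to 6 in TFs against TFc, 8 to 8 in HFc against TFc, 8 to 8 in KFc against TFc, 6 to 7 in HFc against KFc, 7 to 7 in HFs against TFs, 3 to 6 in KFs against TFs, 6 to 8 in HFs against KFs, 2 to 3 for heart against tail, 2 to 7 for kidney against tail and 2 to 5 for heart against kidney responses. Shares of all tested genes were counted only for the main fit, at an adjusted p under 0.05, with and without the log2 fold change limit.

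Signs turned only for log2 differences that were not called with all libraries, and the ranges are over single libraries left out. By library size alone *Snai2* was -0.011 in HFs against HFc. In KFs against KFc, *Snai1* ranged from -0.44 (without KFs replicate 2) to 0.44 (without KFs replicate 3), *Twist1* from -0.42 (without KFs replicate 1) to 0.14 (without KFs replicate 3) and *Prrx1* from -0.15 (without KFs replicate 1) to 0.55 (without KFs replicate 3). *Zeb2* in HFc against KFc ranged from -0.066 to 0.0035, *Twist2* in KFs against TFs from -0.22 to 0.086, *Prrx1* in HFs against KFs from -0.61 to 0.12, *Cdh11* for heart against tail responses from -0.24 to 0.16 and *Prrx1* for kidney against tail responses from -0.60 to 0.12. *Vim* in HFs against KFs ranged from -0.10 to 0.17, and was 0.015 with relative log expression factors and with DESeq2, 0.011 with a mean of at least 10 counts, 0.014 with only these groups and 0.044 with the tubule covariate. The causes were not tested.

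Deviations of same-numbered libraries from their group means correlated at -0.151 to 0.0518. With 3 libraries in a group, these values cannot show whether the replicate numbers pair the samples. With a replicate block, 6 genes passed in HFs against HFc, 4 in KFs against KFc (without *Cdh2*), 6 in TFs against TFc, 8 in HFc against TFc, 8 in KFc against TFc, 7 in HFc against KFc, 7 in HFs against TFs (without *Prrx1*), 4 in KFs against TFs, 6 in HFs against KFs, and 3 in each of the 3 comparisons of responses, without *Zeb1* for heart against tail and without *Zeb2* for heart against kidney.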
